A study of Mus musculus with 10 samples.

Results

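The 9 genes described here are Gm12191, 2610507I01Rik, Lypd10, Dynlt1b, Rnaset2a, Rnaset2b, Ddr2, Ptar1 and Gprin3, out of 27178 gene IDs counted in sorted embryonic mouse cortical cells. They were chosen from their own counts, because their level in single groups stands off in a step while replicates lie close together, as a strain allele or a gene copy number might show. Their counts and fold differences are therefore given as a description, with no test. All 9 passed the filter on low counts, which left 15371 genes tested. The genes lie on 6 chromosomes, with 3 on chromosome 17 and 2 on chromosome 11.

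GFP-positive cells were sorted from dissociated cortex and their mRNA was sequenced in 10 bulk libraries, 2 for each of 5 groups. CcKO and WT cortices were on a C57BL/6 background and were taken at embryonic day (E) 17.5; both had received PB-Ctrl, the control PiggyBac vector, by electroporation in the uterus on E14.5. CcKO embryos carried Nestin-Cre, which is active in neural progenitors and their progeny, and Ccn1fl/fl alleles, and WT embryos were wild type. PB-CCN1, PB-GPC4 and PB-Ctrl cortices came from wild-type ICR embryos, were electroporated at E13.5 with the plasmid that names the group and were taken at E15.5. Every embryo also received a PiggyBac transposase plasmid, injected at 3 µg/µl beside 1.5 µg/µl of the PiggyBac construct. The labels do not say how many embryos went into a library or whether replicates came from separate litters, so the spread between replicates may be technical. Strain, age and day of electroporation cannot be told apart between the E17.5 and the E15.5 libraries.

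C57BL/6 is an inbred strain and the source of the mouse reference genome, whereas ICR is an outbred stock whose animals differ from each other and from the reference at many sites. Reads from an allele that differs from the reference, or from a near-identical copy of a gene, can be placed on another copy or left out of the count. Genes of this kind include processed pseudogenes, which are reinserted copies of a messenger RNA, and recently duplicated genes. No genotype was called here, so whether alleles or copies differ between the groups was not tested.

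Total counts ranged from 22505945 to 30825498 per library, and levels below are counts scaled to library size (CPM, with trimmed mean of M values factors); group levels are means ± SD (n = 2). The targeted genes followed their labels, with Ccn1 at 17 and 86 counts in CcKO libraries, against 415 and 340 in WT libraries. Ccn1 had 158376 and 162522 counts in PB-CCN1 libraries, against 1309 and 1618 in PB-Ctrl libraries, and Gpc4 had 131249 and 152544 counts in PB-GPC4 libraries, against 1829 and 1865 for Gpc4 in PB-Ctrl libraries. A list of 8 cortical markers summed to between 5544 and 6155 CPM in every library. The airway gene Scgb1a1, chosen after its values were seen, had 892 and 951 counts in PB-CCN1 libraries, 0 in both PB-GPC4 libraries, 867 and 1124 in PB-Ctrl libraries and 0 in all 4 E17.5 libraries.

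**Figure D1:**
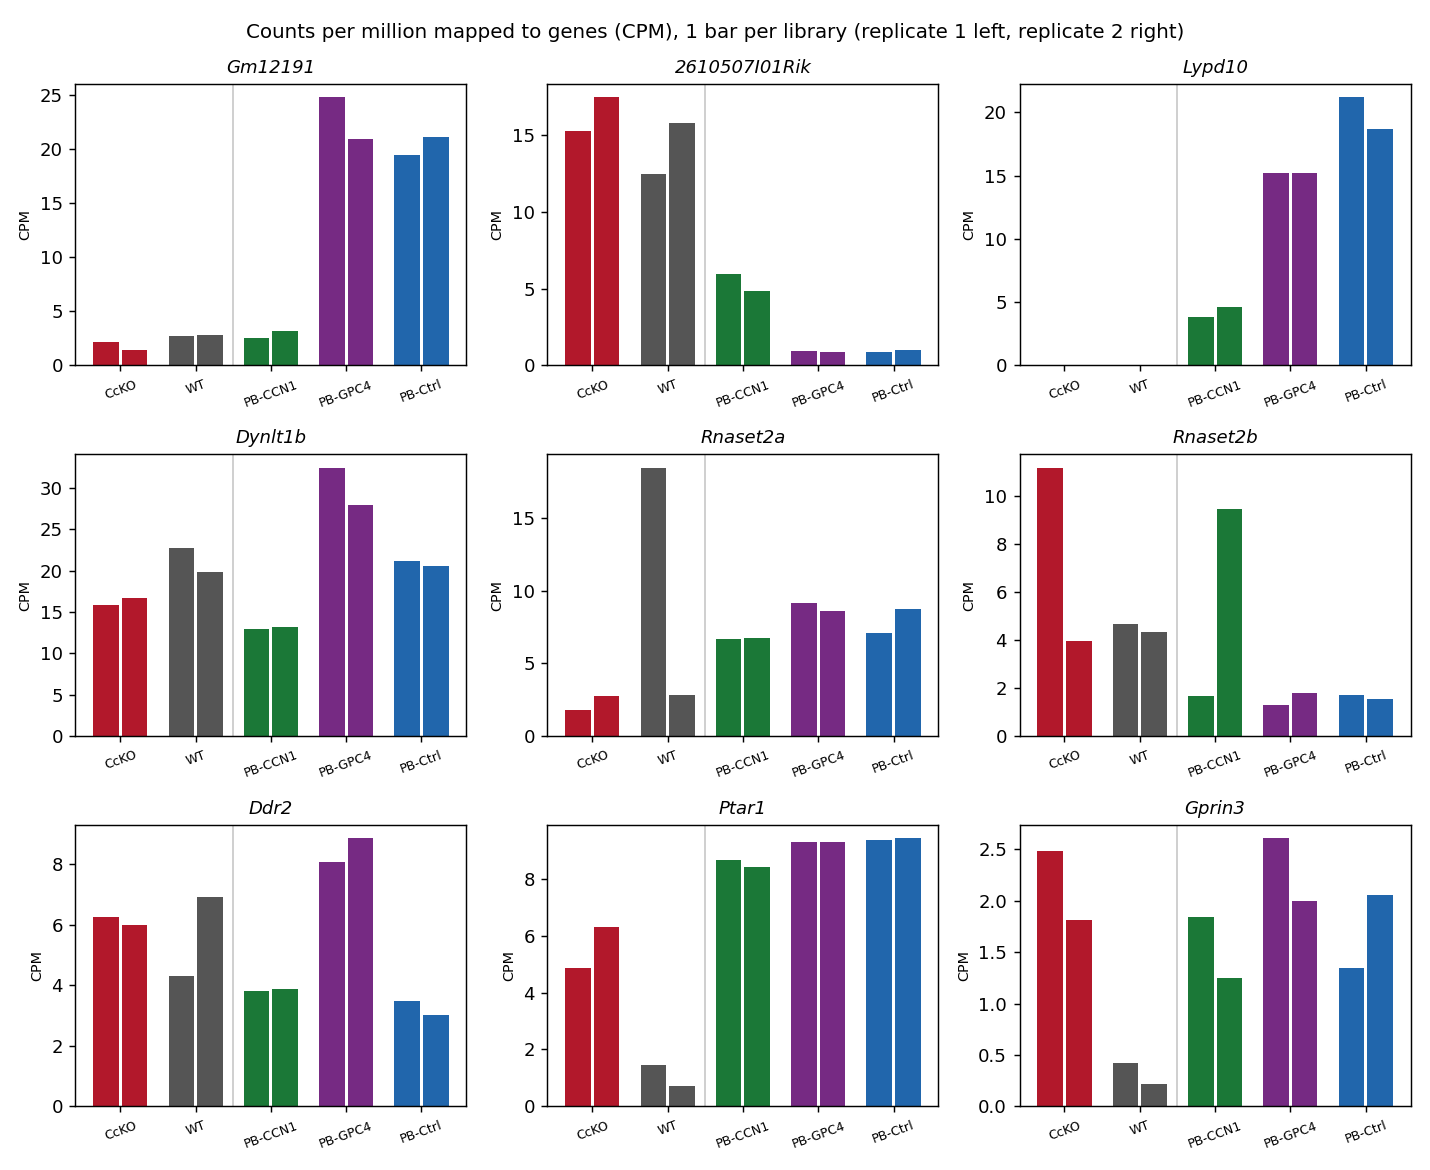
Level of each of the 9 genes in every library, as bars that start at 0 in CPM (y axis), with the groups along the x axis and the grey line between the E17.5 groups (left) and the E15.5 groups (right). PB-CCN1 stands away from PB-GPC4 and PB-Ctrl for Gm12191, 2610507I01Rik and Lypd10, PB-GPC4 is highest for Ddr2 and Dynlt1b, WT is lowest for Ptar1 and Gprin3, and the 2 bars of a group differ widely for Rnaset2a in WT and for Rnaset2b in CcKO and PB-CCN1.

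In a count of steps, defined as group means at least 2-fold apart with no overlap of libraries, 3 of the 9 genes had one for PB-CCN1 over PB-Ctrl, where 3.33% of all tested genes did. For PB-GPC4 over PB-Ctrl the count was 1 of 9, with 4.12% of all tested genes, and for CcKO over WT it was 3 of 9, with 6.12%. For WT over PB-Ctrl it was 6 of 9, with 16.9% of all tested genes. These counts follow from how the genes were chosen and carry no further reading. Among genes with at least 20 counts on average, replicates differed 2-fold or more for 2.54% in CcKO, 1.5% in WT, 1.32% in PB-CCN1, 1.69% in PB-GPC4 and 1.55% in PB-Ctrl.

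Gm12191 is a processed pseudogene of Rpl30, which encodes a protein of the large ribosomal subunit. It lies on chromosome 11 (GRCm38, RefSeq span 49678620 to 49679143, minus strand) in an intron of Cnot6, a deadenylase gene on the same strand. Its shorter GENCODE span (49678710 to 49679057) lies 1207 and 863 bases from the nearest Cnot6 exons. Over the 345 bases that match the Rpl30 coding sequence, the pseudogene differed from Rpl30 at 1 base, A96G, counted from 1 at the start codon, with the pseudogene's base first. The stretches around that base, bases 66 to 125 in GENCODE M21 transcripts, are shown because a read or fragment that does not cross the capital letter matches both genes:
Gm12191: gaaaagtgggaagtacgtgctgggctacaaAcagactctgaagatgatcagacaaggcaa
Rpl30: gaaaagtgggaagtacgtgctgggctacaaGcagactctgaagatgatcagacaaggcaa
All 299 windows of 50 bases in the annotated pseudogene transcript were also found in transcripts of other genes, 249 of them in Rpl30 and 289 in the further pseudogene Rpl30-ps9. The counted model is 524 bases long, longer than that transcript, so part of what was counted is outside these windows.

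Gm12191 had 57 and 74 counts in PB-CCN1 libraries, 635 and 636 in PB-GPC4 libraries and 502 and 596 in PB-Ctrl libraries. In the E17.5 experiment it had 56 and 39 counts in CcKO libraries, against 64 and 80 in WT libraries. PB-CCN1, an ICR group, thus lay with the C57BL/6 groups and not with the other ICR groups. The mean was 2.87 ± 0.449 CPM in PB-CCN1, against 20.2 ± 1.24 CPM in PB-Ctrl, a 7.05-fold lower level, and it was 22.8 ± 2.75 CPM in PB-GPC4. WT averaged 2.79 ± 0.0876 CPM, 7.25-fold lower than PB-Ctrl. In bulk samples fewer cells of a type and less RNA per cell cannot be told apart, for this and the other genes.

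In PB-CCN1 neither the host nor the parent gene of Gm12191 fell with it. Cnot6 averaged 147.2 ± 5.96 CPM in PB-CCN1, against 151.9 ± 1.65 CPM in PB-Ctrl (log2 fold −0.04 ± 0.06 SE, edgeR adjusted p = 0.856). Rpl30 averaged 250.1 ± 5.69 CPM in PB-CCN1, against 202.4 ± 3.8 CPM in PB-Ctrl, and rose by log2 0.30 ± 0.06 (edgeR adjusted p = 0.00368), the opposite direction to the pseudogene; that call was lost when either PB-Ctrl library or PB-CCN1 replicate 1 was left out (adjusted p = 0.0773 to 0.164) and with limma on FPKM (adjusted p = 0.149). Between WT and PB-Ctrl, Cnot6 fell by 1.07 on the log2 scale (edgeR adjusted p = 8.5e-14) and Rpl30 rose by 0.71 (adjusted p = 3.35e-11). For CcKO over WT, Cnot6 rose by 0.66 ± 0.07 (edgeR adjusted p = 1.16e-08) and Rpl30 fell by 0.27 ± 0.06 (adjusted p = 0.000513). Of the 10 tested genes nearest to Gm12191, 0 were called for PB-CCN1 over PB-Ctrl, where 1.19% of all tested genes were, and their median log2 fold was 0.01.

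2610507I01Rik is a long non-coding RNA gene, also on chromosome 11 (59197793 to 59202431, minus strand). Its RefSeq start faces that of Mrpl55, which encodes a protein of the mitochondrial ribosome, across a gap of 54 bases. The RefSeq promoter sequence of GRCm38.p6 around that gap, chr11:59202412-59202505 on the plus strand, is shown because any promoter shared by the 2 genes would include it; the capitals mark the gap:
2610507I01Rik to Mrpl55: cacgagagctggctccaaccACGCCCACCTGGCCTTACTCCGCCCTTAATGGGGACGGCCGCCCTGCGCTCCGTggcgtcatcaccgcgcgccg
None of the 1284 windows of 50 bases in its GENCODE transcripts occurred in a transcript of another gene. The counted model is 2905 bases long and extends beyond those transcripts, so part of what was counted is outside these windows.

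The long non-coding RNA had 133 and 113 counts in PB-CCN1 libraries, 24 and 26 in PB-GPC4 libraries and 23 and 29 in PB-Ctrl libraries. It had 389 and 483 counts in CcKO libraries, against 292 and 442 in WT libraries. The order is the reverse of that of Gm12191, with C57BL/6 groups highest, PB-CCN1 between and the other ICR groups lowest. The mean was 5.42 ± 0.772 CPM in PB-CCN1, against 0.958 ± 0.0994 CPM in PB-Ctrl, a 5.66-fold higher level. WT averaged 14.1 ± 2.34 CPM, 14.7-fold higher than PB-Ctrl, and CcKO averaged 16.4 ± 1.54 CPM, overlapping WT.

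Mrpl55, across the gap, averaged 17.8 ± 1.27 CPM in PB-CCN1, against 14.7 ± 3.09 CPM in PB-Ctrl, and was not called (log2 fold 0.27 ± 0.13, edgeR adjusted p = 0.39). It rose in WT relative to PB-Ctrl, to 33.8 ± 1.37 CPM (log2 fold 1.20 ± 0.12, adjusted p = 1.94e-09). Guk1, a guanylate kinase gene on the other side, showed log2 folds of 0.14 ± 0.09 for PB-CCN1 over PB-Ctrl (edgeR adjusted p = 0.579) and 0.62 ± 0.09 for WT over PB-Ctrl (adjusted p = 8.25e-07). None of the 10 nearest tested genes was called for PB-CCN1 over PB-Ctrl, and their median log2 fold was 0.06. For CcKO over WT, 5 of these 10 neighbours were called, 1 higher and 4 lower, where 30.3% of all tested genes were called; the higher one was Jmjd4, of the Jumonji domain family, at 21 ± 0.101 CPM in CcKO, against 10.3 ± 0.439 CPM in WT (log2 fold 1.03, adjusted p = 1.92e-07).

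Lypd10 encodes a protein of the Ly6/uPAR family, small cysteine-rich proteins that mostly sit on the outer face of the cell membrane, and lies on chromosome 7 (24709202 to 24714535, plus strand). It had 86 and 107 counts in PB-CCN1 libraries, 390 and 463 in PB-GPC4 libraries and 550 and 528 in PB-Ctrl libraries, and 0 counts in all 4 E17.5 libraries. No group overlapped another within the E15.5 experiment. The mean was 4.23 ± 0.535 CPM in PB-CCN1, against 20 ± 1.77 CPM in PB-Ctrl, a 4.72-fold lower level. PB-GPC4 averaged 15.2 ± 0.0128 CPM, 1.31-fold lower than PB-Ctrl. With a floor of 3 counts per library, WT was at least 169.9-fold lower than PB-Ctrl, and at least 36-fold lower than PB-CCN1.

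Of the 1179 windows of 50 bases in Lypd10 transcripts, 170 occurred elsewhere, 120 in the neighbouring Lypd11 and 90 in Cd177, a neutrophil surface protein gene. Lypd11 itself had at most 6 counts in any library. Among the 10 nearest tested genes, none was called for PB-CCN1 over PB-Ctrl, and Arhgef1 was the only one called for PB-GPC4 over PB-Ctrl, where 6.36% of all tested genes were. It averaged 137.7 ± 9.69 CPM in PB-GPC4, against 178 ± 2.57 CPM in PB-Ctrl (log2 fold −0.37 ± 0.08, edgeR adjusted p = 0.00314), and lost the call without PB-Ctrl replicate 2 or PB-GPC4 replicate 1 (adjusted p = 0.0744 and 0.0998), with DESeq2 (0.0545) and with limma on FPKM (0.0905). For WT over PB-Ctrl, 6 of the 10 neighbours were called, 5 higher and 1 lower, where 54.9% of all tested genes were called. The 2 with the smallest adjusted p rose, Rabac1 by log2 0.96 ± 0.09 and Zfp428 by 0.62 ± 0.06 (edgeR adjusted p = 6.03e-10 and 1.95e-09), against the fall to 0 of Lypd10 beside them. Of the 8 tested Ly6/uPAR genes on the list used here, 0 were called for PB-CCN1 over PB-Ctrl and 0 for PB-GPC4 over PB-Ctrl. For WT over PB-Ctrl 2 of the 8 rose and 2 fell (50% called, 54.9% over all tested genes). Lypd6 fell by 0.37 on the log2 scale (edgeR adjusted p = 0.000377) and Lypd6b rose by 0.79 (adjusted p = 0.000535). Ly6h, a brain Ly6 protein, rose by log2 1.55 ± 0.06 in WT relative to PB-Ctrl (adjusted p = 5.68e-18) and fell by 0.57 in CcKO relative to WT (adjusted p = 1.84e-08).

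Ddr2 encodes a receptor tyrosine kinase that is activated by fibrillar collagen and is best known from fibroblasts and other mesenchymal cells; it lies on chromosome 1 (169972307 to 170110836, minus strand). It had 207 and 270 counts in PB-GPC4 libraries, 85 and 90 in PB-CCN1 libraries and 90 and 85 in PB-Ctrl libraries. PB-GPC4 was above every other library, at 8.46 ± 0.556 CPM, against 3.24 ± 0.325 CPM in PB-Ctrl, 2.61-fold higher. The gene had 159 and 165 counts in CcKO libraries, against 101 and 194 in WT libraries, so that the WT libraries lay on both sides of CcKO. WT averaged 5.62 ± 1.85 CPM, 1.73-fold higher than PB-Ctrl. PB-GPC4, like PB-CCN1 for the genes above, therefore stood apart from groups of its own stock and age.

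The 8 meningeal fibroblast markers summed to between 2.38 and 12.5 CPM in PB-GPC4 libraries, against 5.83 to 7.55 CPM in PB-Ctrl libraries, with 1 of the 8 at 0 in PB-GPC4, and 0 of the 6 tested were called for PB-GPC4 over PB-Ctrl. The sums in the 2 PB-GPC4 libraries lay on both sides of PB-Ctrl, and Ddr2 was 8.07 and 8.86 CPM in these libraries. Which cells the Ddr2 counts came from was not tested. Of 12 tested genes for collagen receptors, collagens and matrix proteases, 0 were called for PB-GPC4 over PB-Ctrl, with a median log2 fold of 0.10, and 0 for PB-CCN1 over PB-Ctrl. For WT over PB-Ctrl, 7 of the 12 were called (58.3%), near the 54.9% of all tested genes, among them Ddr1, the other collagen-binding discoidin receptor, which fell by 0.53 on the log2 scale (edgeR adjusted p = 4.48e-08). None of the 10 tested neighbours of Ddr2 was called for PB-GPC4 over PB-Ctrl; their median log2 fold was −0.10. The overlapping gene 3110045C21Rik averaged 0.473 CPM in PB-GPC4, against 0.417 CPM in PB-Ctrl, and whether the authors counted by strand is not given in the sources used here. Of the 9290 windows of 50 bases in Ddr2 transcripts, 104 occurred in other genes.

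Gprin3 encodes a G protein regulated inducer of neurite outgrowth, a membrane-associated partner of Gi/o alpha subunits, and lies on chromosome 6 (59344500 to 59426306, minus strand). It had 63 and 50 counts in CcKO libraries, against 10 and 6 in WT libraries. It had 41 and 29 counts in PB-CCN1 libraries, 67 and 61 in PB-GPC4 libraries and 35 and 58 in PB-Ctrl libraries. WT was below every other library. PB-CCN1 and PB-GPC4 each overlapped PB-Ctrl, while both PB-CCN1 libraries were below both PB-GPC4 libraries (1.49-fold lower). CcKO averaged 2.15 ± 0.473 CPM, against 0.32 ± 0.15 CPM in WT, 6.7-fold higher. WT was 5.32-fold lower than PB-Ctrl, at 1.7 ± 0.499 CPM. The step rests on few WT counts, which differed 1.99-fold between the WT libraries.

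Ptar1 encodes an alpha-subunit repeat protein of a protein prenyltransferase, an enzyme that attaches a lipid to proteins of membrane traffic, and lies on chromosome 19 (23687361 to 23732885, plus strand). It had 124 and 174 counts in CcKO libraries, against 34 and 20 in WT libraries. It had 193 and 195 counts in PB-CCN1 libraries, 238 and 283 in PB-GPC4 libraries and 243 and 266 in PB-Ctrl libraries. The groups formed 3 tiers, WT lowest, CcKO between and the E15.5 groups highest. CcKO averaged 5.59 ± 1.01 CPM, against 1.08 ± 0.521 CPM in WT, 5.17-fold higher. WT was 8.69-fold lower than PB-Ctrl, at 9.4 ± 0.0382 CPM, and CcKO was 1.68-fold lower than PB-Ctrl. The WT libraries differed 2.03-fold from each other.

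WT also lay below all other groups for other genes. Of all tested genes, 48 (0.312%) were at least 4-fold lower in WT than in each of the 4 other groups with no overlap, Ptar1 and Gprin3 among them, against 7 (0.0455%) higher. Between CcKO and WT the folds of all genes differed with counted length. In the decile of longest genes the median log2 fold was 0.33, and in that of the shortest −0.28. Ptar1 (2064 bases) and Gprin3 (3100 bases) are of medium length. The 1537 genes in the length decile of Ptar1 had a median of −0.07, with their 5th and 95th percentiles at −0.65 and 0.90, against 2.37 for Ptar1. The 1537 genes in that of Gprin3 had a median of 0.01, with percentiles at −0.47 and 1.02, against 2.74 for Gprin3. Both genes were chosen from their own counts, so a place outside these percentiles follows from that choice. It carries no reading on length, whose part in these values was not tested.

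Few of the genes around these 2 were called for CcKO over WT, where 30.3% of all tested genes were. Of the 10 tested neighbours of Ptar1, only Cemip2 was called for CcKO over WT (log2 fold 0.34, edgeR adjusted p = 0.000136), and the median was 0.09. The nearest on either side, Mamdc2 and the synaptic adaptor gene Apba1, showed −0.05 and 0.15 (adjusted p = 0.977 and 0.203). Among the 10 neighbours of Gprin3, Herc3 and Ccser1 were called (log2 fold 0.40 and 0.46, edgeR adjusted p = 4.92e-05 and 5.61e-05), with a median of 0.01. For WT over PB-Ctrl, 54.9% of all tested genes were called. There, 1 of the 10 neighbours of Gprin3 was called higher and 6 lower, the direction of Gprin3, with a median of −0.59. Herc3 and Ccser1 were among those 6 (log2 fold −1.10 and −1.16). Of the 10 neighbours of Ptar1, 3 were called higher and 3 lower, with a median of −0.13. Among these, Fam189a2 rose by log2 2.38 ± 0.26 (edgeR adjusted p = 8.21e-09) and Cemip2 fell by 0.69 ± 0.06 (adjusted p = 2.76e-10). In family lists, 6 of 7 tested GPRIN proteins and Gi/o alpha subunits rose in CcKO relative to WT, against 17.4% of all tested genes that rose. Most of these rises were small, with Gnao1, Gnai1 and Gnai3 at log2 0.14, 0.22 and 0.14 (edgeR adjusted p = 0.0395, 0.0264 and 0.0444). Gprin2 averaged 1.84 ± 0.158 CPM in CcKO, against 0.363 ± 0.0916 CPM in WT, and rose by log2 2.31 ± 0.54 (edgeR adjusted p = 0.00149). That rise rests on 7 and 12 counts in the WT libraries. Gnaz, a Gi-type alpha subunit gene, rose by 0.49 ± 0.12 (adjusted p = 0.00265) and Gprin1 by 0.20 ± 0.05 (adjusted p = 0.00623). Without CcKO replicate 2 neither Gnaz nor Gprin1 was called (edgeR adjusted p = 0.0546 and 0.0586). Of 11 tested prenylation enzymes, 1 rose and 3 fell (36.4% called, near the 30.3% of all tested genes), with the protein prenylation gene Pggt1b rising by 0.71 ± 0.13 (edgeR adjusted p = 0.000159) and the isoprenoid synthesis gene Fdps falling by 0.32 (adjusted p = 0.00026).

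Dynlt1b encodes a Tctex-type light chain of cytoplasmic dynein, the motor that carries cargo towards microtubule minus ends, and is 1 of 4 near-identical Dynlt1 genes within a segmentally duplicated stretch of chromosome 17 (Dynlt1b, 6429530 to 6440500, plus strand). Its 339-base coding sequence differed from those of Dynlt1a, Dynlt1c and Dynlt1f at the same single base, A21C, counted from 1 at the start codon with the Dynlt1b base first. The opening 60 coding bases from GENCODE M21 show how little separates reads of these genes, with the differing base in capitals:
Dynlt1b: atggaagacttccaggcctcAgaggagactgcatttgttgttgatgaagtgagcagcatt
Dynlt1a: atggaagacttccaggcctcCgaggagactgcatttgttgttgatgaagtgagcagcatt
Dynlt1c: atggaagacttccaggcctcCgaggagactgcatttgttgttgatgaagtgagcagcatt
Dynlt1f: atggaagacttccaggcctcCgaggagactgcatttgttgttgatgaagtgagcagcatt
Of 722 windows of 50 bases in Dynlt1b transcripts, 601 occurred in other genes, 551 of them in Dynlt1a, 551 in Dynlt1c and 501 in Dynlt1f. The split of reads between the 4 genes is therefore uncertain.

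Dynlt1b had 290 and 307 counts in PB-CCN1 libraries, 834 and 855 in PB-GPC4 libraries and 550 and 582 in PB-Ctrl libraries. It had 402 and 460 counts in CcKO libraries, against 532 and 557 in WT libraries. PB-CCN1 was lowest and PB-GPC4 highest of all groups with no overlap, at 13.1 ± 0.165 and 30.3 ± 3.16 CPM, against 20.9 ± 0.416 CPM in PB-Ctrl. These are 1.6-fold lower and 1.45-fold higher levels than in PB-Ctrl, so neither reached 2-fold. CcKO averaged 16.2 ± 0.593 CPM, against 21.3 ± 2 CPM in WT, 1.31-fold lower (log2 fold −0.39). Dynlt1b (771 bases counted) is in the decile of shortest genes. Their median log2 fold for CcKO over WT was −0.28, with 5th and 95th percentiles at −1.22 and 1.21. WT and PB-Ctrl, which differ in strain, age and day of electroporation, overlapped for this gene.

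Summed over the 4 genes, the Dynlt1 level was 36.5 ± 1.42 CPM in PB-CCN1 and 56.1 ± 1.72 CPM in PB-GPC4, against 45.8 ± 0.287 CPM in PB-Ctrl. It was 50.4 ± 2.93 CPM in CcKO, against 64.6 ± 4.05 CPM in WT. The order of the E15.5 groups was the same in the sum as in Dynlt1b alone, but the sum contains Dynlt1b. It therefore does not show that the other copies followed. Of the E15.5 groups, PB-CCN1 averaged highest for Dynlt1a and Dynlt1c (5.76 and 7.79 CPM) and lowest for Dynlt1f (9.85 CPM). The share of Dynlt1b in the sum was 34.6% and 37.3% in PB-CCN1 libraries, 56.8% and 51.1% in PB-GPC4 libraries and 46.5% and 44.8% in PB-Ctrl libraries. It was 32.7% and 31.7% in CcKO libraries, against 33.6% and 32.2% in WT libraries. Among the other copies, Dynlt1a stood at 15.8 ± 0.121 CPM in WT, against 4.75 ± 0.859 CPM in PB-Ctrl (log2 fold 1.73 ± 0.19, edgeR adjusted p = 6.17e-09).

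Some genes beside Dynlt1b were lower with it in PB-CCN1. Of its 10 tested neighbours, 3 were called lower for PB-CCN1 over PB-Ctrl, where 0.748% of all tested genes were called lower. The median log2 fold of the 10 was −0.04, and 1 of the 3 was Dynlt1f, a near-identical copy that can share reads with Dynlt1b. The transcribed pseudogene Tmem181b-ps averaged 64.7 ± 3.33 CPM in PB-CCN1, against 105.9 ± 4.35 CPM in PB-Ctrl, a log2 fold of −0.71 ± 0.09 (edgeR adjusted p = 1.21e-05). Tmem181c-ps averaged 22.9 ± 0.763 CPM, against 35.5 ± 0.506 CPM (log2 fold −0.63 ± 0.13, adjusted p = 0.0116), and Dynlt1f averaged 9.85 ± 0.46 CPM, against 14.9 ± 1.44 CPM (−0.60 ± 0.13, adjusted p = 0.0151). Leaving out either PB-CCN1 or either PB-Ctrl library ended the call of Tmem181c-ps (adjusted p = 0.108 to 0.164), and that of Dynlt1f was lost without either PB-CCN1 library or without PB-Ctrl replicate 2 (0.0838 to 0.289). Tmem181b-ps kept its call in each of these (edgeR adjusted p = 0.000493 to 0.00254) and lost it with limma on FPKM (0.0572). Dynlt1b (log2 fold −0.67) lies beside Tmem181b-ps on the opposite strand, with no overlap of the GENCODE spans but with overlap of the longer RefSeq spans, so without strand, reads there could count for either. Dynlt1a (0.28 ± 0.20, edgeR adjusted p = 0.626), Dynlt1c (0.55 ± 0.29, adjusted p = 0.478) and Tmem181a (−0.24 ± 0.15, adjusted p = 0.585) were not called.

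For PB-GPC4 over PB-Ctrl none of the 10 neighbours of Dynlt1b was called, with Tmem181b-ps at log2 0.27 ± 0.08 (edgeR adjusted p = 0.0502). Tmem181c-ps averaged 3.11 ± 0.542 CPM in WT, against 35.5 ± 0.506 CPM in PB-Ctrl, a fall of 3.50 on the log2 scale (edgeR adjusted p = 4.76e-16), the largest fall among the called neighbours of Dynlt1b in that comparison. Of 12 tested dynein subunit genes, Dynlt1f was the only one called for PB-CCN1 over PB-Ctrl. For PB-GPC4 over PB-Ctrl the intermediate chain gene Dync1i2 and the light chain gene Dynlrb1 rose, by log2 0.23 ± 0.05 and 0.20 ± 0.05 (edgeR adjusted p = 0.0025 and 0.0251). The call of Dync1i2 was lost without PB-GPC4 replicate 2 (adjusted p = 0.0533), and that of Dynlrb1 without any of the PB-GPC4 or PB-Ctrl libraries (0.112 to 0.191). For CcKO over WT, 2 of the 12 rose and 5 fell (58.3% called, 30.3% over all tested genes). The heavy chain gene Dync1h1 rose by 0.53 ± 0.04 (edgeR adjusted p = 7.19e-11) and Dynlt1a fell by 0.74 (adjusted p = 0.00165). Folds of all genes in that comparison differed with counted length, and what part length had here was not tested.

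Rnaset2a (chromosome 17, 8128580 to 8148246, minus strand) and Rnaset2b (chromosome 17, 6978860 to 6998193, plus strand) encode T2 ribonucleases, secreted and lysosomal enzymes that degrade RNA. Their coding sequences of 777 bases differed at 0 positions, and their opening 60 bases, from GENCODE M21, are printed to show that no read of the reference coding sequence can tell them apart:
Rnaset2a: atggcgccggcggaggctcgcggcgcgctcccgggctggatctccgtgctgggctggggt
Rnaset2b: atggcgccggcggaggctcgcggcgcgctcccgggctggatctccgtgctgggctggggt
Of the windows of 50 bases, 77.2% of the 3293 of Rnaset2a occurred in Rnaset2b and 56% of the 4541 of Rnaset2b in Rnaset2a. The counted models are shorter, at 962 and 1013 bases, so these shares do not describe what was counted. Gm49673 and Gm49721 held 26.1% and 24.4% of the Rnaset2a windows and are not in the sums of the 2 genes below. With identical coding sequences, counts for either gene rest on the parts outside them, or on how the authors' aligner and counter treated reads that fit both. That treatment is not given in the sources used here.

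For these 2 genes the data went against the description of a step with close replicates. Rnaset2a had 46 and 76 counts in CcKO libraries, against 434 and 79 in WT libraries. It had 149 and 157 counts in PB-CCN1 libraries, 235 and 262 in PB-GPC4 libraries and 184 and 246 in PB-Ctrl libraries. WT replicate 1 alone was high, 6.57-fold above WT replicate 2, whose CPM was 2.82, against 2.75 in CcKO replicate 2. CcKO was 4.68-fold lower than WT with both libraries, and the log2 fold of −2.23 became −0.30 without WT replicate 1. For WT over PB-Ctrl the log2 fold of 0.43 became −1.49 without that library.

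Rnaset2b had 284 and 110 counts in CcKO libraries, against 110 and 121 in WT libraries. It had 37 and 220 counts in PB-CCN1 libraries, 33 and 55 in PB-GPC4 libraries and 44 and 44 in PB-Ctrl libraries. CcKO replicate 1 and PB-CCN1 replicate 2 stood alone, 2.81-fold and 5.72-fold above the other replicate of their group. The log2 fold of PB-CCN1 over PB-Ctrl was 1.77 with both libraries and 0.03 without PB-CCN1 replicate 2, and that of CcKO over WT was 0.75 with both and −0.18 without CcKO replicate 1. WT averaged 4.5 ± 0.266 CPM, 2.77-fold above PB-Ctrl at 1.63 ± 0.0975 CPM, with no overlap.

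Together the 2 ribonuclease genes had 9.86 ± 4.42 CPM in CcKO, against 15.2 ± 11.4 CPM in WT. They had 12.3 ± 5.59 CPM in PB-CCN1 and 10.4 ± 0.0358 CPM in PB-GPC4, against 9.54 ± 1.05 CPM in PB-Ctrl. In CcKO replicate 1, where Rnaset2b was at 11.2 CPM, Rnaset2a was at 1.81 CPM, its lowest level of the 10 libraries. The sum was still highest in the libraries that stood alone, at 13 CPM in CcKO replicate 1, 23.2 CPM in WT replicate 1 and 16.2 CPM in PB-CCN1 replicate 2, and at most 10.4 CPM elsewhere. Rnaset2a made 79.8% to 87.7% of the sum in WT replicate 1, PB-CCN1 replicate 1 and all PB-GPC4 and PB-Ctrl libraries, and 13.9% to 41.6% in the other 4 libraries. Of 13 tested genes for lysosomal hydrolases and membrane proteins, 0 were called for PB-CCN1 over PB-Ctrl and 0 for PB-GPC4 over PB-Ctrl. For WT over PB-Ctrl 8 of the 13 rose and 1 fell (69.2%), where 54.9% of all tested genes were called, and the cathepsin gene Ctsb rose by log2 0.62 ± 0.06 (edgeR adjusted p = 4.27e-10).

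**Figure D2:**
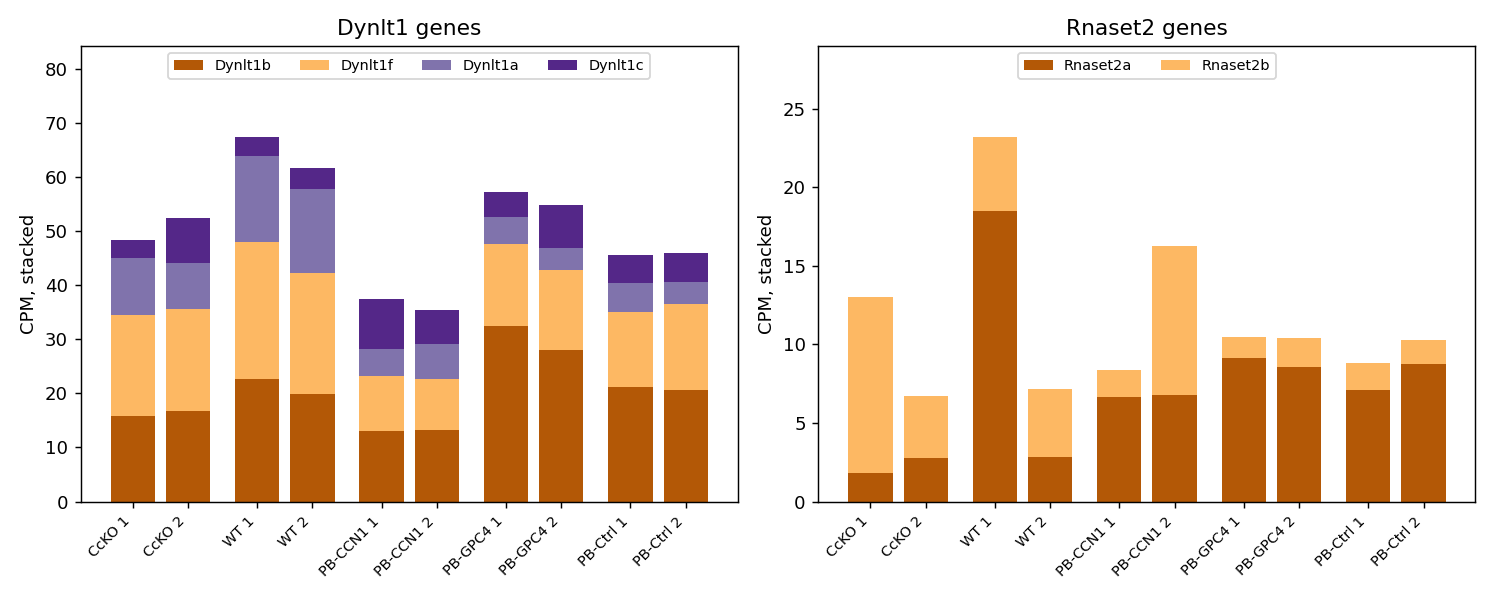
Stacked CPM (y axis, from 0) in each library (x axis, with replicate number) for the 4 Dynlt1 genes (left) and the 2 Rnaset2 genes (right). The Dynlt1 sum is lowest in the PB-CCN1 libraries, at 37.5 and 35.5 CPM, and the Rnaset2 sum is highest in WT replicate 1, at 23.2 CPM.

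The share of neighbours called varied between the 9 genes; for CcKO over WT it was 60% for those of Lypd10 and Dynlt1b and 10% for those of Ddr2 and Ptar1, with 30.3% over all genes, and for WT over PB-Ctrl it was 50% for those of Dynlt1b and 80% for those of Rnaset2a, with 54.9% over all genes. These shares were not tested against each other. The 1 called neighbour of Ddr2 for CcKO over WT was Uhmk1. It averaged 13 ± 1.16 CPM in CcKO, against 4.02 ± 0.287 CPM in WT (log2 fold 1.69 ± 0.16, edgeR adjusted p = 4.78e-09). In PB-CCN1, PB-GPC4 and PB-Ctrl it averaged 19, 18.7 and 17 CPM, so that Uhmk1, like Ptar1 and Gprin3, was lowest in WT. Of 84 tested neighbours of the 9 genes, 4 were called for PB-CCN1 over PB-Ctrl (4.76%, all genes 1.19%), the fourth being Rgs4 near Ddr2, a regulator of G-protein signalling (0.484 ± 0.0756 CPM in PB-CCN1, against 1.61 ± 0.426 CPM in PB-Ctrl; edgeR adjusted p = 0.029, and 0.0554 to 0.374 without any of the 4 libraries compared). For PB-GPC4 over PB-Ctrl 6 were called (7.14%, all genes 6.36%), for CcKO over WT 28 (33.3%, all genes 30.3%) and for WT over PB-Ctrl 53 (63.1%, all genes 54.9%). Tagap, near the Rnaset2 genes, averaged 0.135 ± 0.0104 CPM in WT, against 4.34 ± 0.0799 CPM in PB-Ctrl (log2 fold −4.95 ± 0.50, edgeR adjusted p = 2.24e-09). Tagap1 and Ezr, near the same genes, rose in PB-GPC4 relative to PB-Ctrl by log2 0.38 ± 0.10 and 0.21 ± 0.05 (edgeR adjusted p = 0.0174 and 0.0176). Neither call held without either PB-Ctrl library or without PB-GPC4 replicate 1 (adjusted p = 0.063 to 0.364), and that of Tagap1 was also lost without PB-GPC4 replicate 2 (0.0992). Scgb3a1, an airway secretoglobin gene near Gm12191, had 18 and 10 counts in PB-CCN1 libraries and at most 2 in any E17.5 library. The airway gene Scgb1a1 was likewise found in PB-CCN1 and PB-Ctrl libraries. Scgb3a1 had 0 counts in both PB-GPC4 libraries, against 13 and 14 in PB-Ctrl libraries, at least 4.63-fold lower with a floor of 3 counts per library (edgeR adjusted p = 0.0191). That call was lost when any of these 4 libraries was left out (adjusted p = 0.106 to 0.179).

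Each E15.5 group was set against both others for differences of at least 4-fold with no overlap. PB-CCN1 was higher for 7 (0.0455% of all tested genes), among them 2610507I01Rik and Ccn1 itself, and lower for 20 (0.13%), among them Gm12191. PB-Ctrl stood apart from both others for as many genes, 7 higher (0.0455%) and 20 lower (0.13%). Zfp33b and Padi4, chosen after their values were seen, were 2 others among the 20 that were lower in PB-CCN1. Zfp33b, a zinc finger gene on chromosome 5, had 14 and 11 counts in PB-CCN1 libraries, 64 and 75 in PB-GPC4 libraries, 114 and 127 in PB-Ctrl libraries and 249 to 331 in the E17.5 libraries. Padi4, a peptidylarginine deiminase gene on chromosome 4, had 26 and 12 counts in PB-CCN1 libraries, 104 and 130 in PB-GPC4 libraries, 144 and 141 in PB-Ctrl libraries and 0 to 4 at E17.5. The pattern of Padi4 resembled that of Lypd10, while Zfp33b was lowest in PB-CCN1 and highest in the C57BL/6 groups. For PB-GPC4 apart from both others in the same way, 3 genes were higher (0.0195%) and 52 lower (0.338%), and Ddr2 was among the 54 (0.351%) that were at least 2-fold higher.

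The 9 genes differed in how many other genes followed them over the 10 libraries, which share depth and the difference between the experiments. By Pearson's r of log2 CPM, given as a description, Ptar1 had 491 and Lypd10 had 325 of 14859 named genes at r of at least 0.95, and 2610507I01Rik had 19. The most alike were Mmp16 for Ptar1 (r = 0.997), Neil3 for Lypd10 (r = 0.997) and Clip2 for 2610507I01Rik (r = 0.977). Gprin3 had 27, led by Uhrf1bp1l and Ctnnd2 (r = 0.974 each), Ddr2 had 1, Asic1 (r = 0.95), and Gm12191, Dynlt1b, Rnaset2a and Rnaset2b had 0. Their closest genes were Pdlim5 (r = 0.940), Eif2b5 and Ppid (r = 0.870 each), Cep44 (r = 0.907) and Far2 (r = 0.931). The likeness is one of shape and not of size. Clip2 spanned 0.32 log2 units over the 10 libraries, against 4.24 for 2610507I01Rik, and Asic1 spanned 0.22, against 1.53 for Ddr2.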

How the data were processed

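Per the submitters' processing notes, the tools were bcl2fastq, Trimmomatic, HISAT2 and featureCounts, and the build mm10; versions, multi-mapping and strand settings are not given in the sources used here. The authors deposited raw read counts per Entrez gene ID and FPKM, which is length- and total-scaled; the deposited FPKM served only as an alternative. The 9 genes were found by Entrez ID. Members, lists and tests were chosen with earlier results of these data known. Counts of all 27178 IDs were fitted with edgeR 4.0.16 (R 4.3.3, quasi-likelihood F-test, TMM, filterByExpr, 5 group means, 15371 genes tested, 5 residual degrees of freedom), with Benjamini-Hochberg adjustment, two-sided, called under 0.05. The fit was tested on simulated data. Replicates differed beyond counting error (chi-square per degree of freedom 3.4 to 9.09). The floor of 3 counts covers counting error only.

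Named were the 9 genes, Ccn1, Gpc4 and near-identical copies. Neighbours were picked from the 5 tested genes on each side, up to 4 called per comparison (2 per gene for WT over PB-Ctrl). Up to 3 called genes were picked per family list and comparison, and the 3 genes most alike per gene. Not every gene picked in these ways is described in the text. Others are marked as chosen after their values were seen or are the nearest neighbours, overlapping genes or copies of a member. Marker lists covered cortical cells, meningeal fibroblasts, endothelial cells, pericytes, microglia, interneurons and erythroid cells. Interneuron markers summed to 42.5 to 66 CPM at E17.5 and 10.6 to 17.4 CPM at E15.5, erythroid markers to 2.25 to 11.2 CPM, microglial markers to 3.32 to 9.55 CPM, pericyte markers to 2.24 to 10.1 CPM, endothelial markers to 2.33 to 7.93 CPM and fibroblast markers to 2.38 to 18.2 CPM over all libraries. Gene positions are from RefSeq GRCm38.p6; shared sequence was counted in windows of 50 bases over GENCODE M21 transcripts, both strands. Alternatives were relative log expression size factors, total counts, no filter, a replicate block, each experiment alone, DESeq2 1.42.0, limma 3.58.1 on log2(FPKM + 1), 10 neighbours per side and each library left out.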

Additional observations from a re-analysis of the deposited data

How the results depend on the processing

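For PB-CCN1 over PB-Ctrl, all genes called were 183, against 298 with no filter, 537 with the experiment fitted alone, 34 with limma on FPKM and 56 to 283 with a library left out. Neighbours called were 4, against 1 with limma and 1 to 4 with a library left out, and family genes 2, against 1 with limma and 0 to 2. For PB-GPC4 over PB-Ctrl, all genes called were 978, against 2006 fitted alone, 341 with limma and 284 to 1475 with a library left out. Neighbours were 6, against 10 fitted alone, 1 with limma, 10 with 10 genes per side and 0 to 8 with a library left out. Family genes were 3, against 9 with no filter, 10 fitted alone, 5 with DESeq2, 1 with limma and 1 to 7 with a library left out. For CcKO over WT, all genes called were 4663, against 2919 to 4585 with a library left out (lowest without WT replicate 2), and neighbours 28, against 49 with 10 per side; for WT over PB-Ctrl neighbours were 53, against 87 with 10 per side. The cause of these shifts was not tested, except that more neighbours were counted with 10 per side and fewer libraries entered the left-out fits, in which a lone library was assumed to vary like the other groups.

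Replicate numbers did not pair the libraries (correlations of deviations −0.0163 to 0.018), and with a replicate block 179 genes were called for PB-CCN1 over PB-Ctrl, 917 for PB-GPC4 over PB-Ctrl, 4567 for CcKO over WT and 8370 for WT over PB-Ctrl.

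Of 244 alternative values for the 9 genes, 215 moved by less than the replicate SD and 29 by more. Of 1399 for the other named genes, 82 lost their call, 12 gained one and 0 reversed. Ptar1 and Gprin3 rested on few WT counts, with log2 folds for CcKO over WT of 2.97 and 3.33 without WT replicate 1 and of 1.95 and 2.33 without WT replicate 2, against 2.37 and 2.74 with both. With 2 libraries per group, no sample could be tested as an outlier.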
